A study of Mus musculus with 24 samples.

Results

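The genes described here are grouped around the tails of maternal mRNA, the messages that a growing oocyte makes and stores. They are 10 of the 78298 genes in each deposited count table. They include the uridylyltransferases Tut4 and Tut7, the exonuclease Dis3l2 and the CCR4-NOT deadenylases Cnot6, Cnot6l and Cnot7. Btg4, Pabpn1l and Zfp36l2 are RNA-binding or adaptor proteins. Noct is a relative of the CCR4 deadenylases, but its purified protein acts on NADP(H). All 10 were found by gene symbol in both tables. The members were chosen by their counts in these data: the set was put together because Noct and Tut7 were lower in oocytes of blebbistatin-treated follicles, so the values of that contrast describe how the set was chosen and are given with no test.

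A stored mRNA is kept silent with a short poly(A) tail and is destroyed in bulk when the oocyte matures and the embryo takes over. The CCR4-NOT complex removes the tail, adaptor proteins bring the complex to its targets, and TUT4 and TUT7 add uridines to the shortened tail, which DIS3L2 and other nucleases then recognise. In mouse oocytes loss of the adaptor BTG4, of CNOT6L or of both uridylyltransferases is known to disturb this clearance.

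RNA was sequenced from oocytes and from granulosa cells, the somatic cells around the oocyte, of wild-type mouse ovarian follicles held in alginate gel for 3 days. There were 6 groups of 4 libraries, in the order oocytes and then granulosa cells of follicles grown with 20 µM blebbistatin, an inhibitor of the motor protein myosin II, with dextran at 10 kPa, an osmotic compression, or in control medium. All follicles, controls included, had FSH at 50 mIU/ml, fetal bovine serum and insulin-transferrin-selenium, and only those past 180 µm were taken. An oocyte library pooled 1 to 2 oocytes and a granulosa library many cells; the labels call the replicates biological but name no animals or cultures, so p-values measure the spread between these libraries. Whether control medium held the solvent of blebbistatin is not given in the sources used here.

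Library totals ran from 14244057 to 22430951 estimated counts. The labels of the cells fitted their markers: 12 oocyte markers summed to between 15010 and 24660 CPM, the counts relative to the scaled library total, in oocyte libraries and to between 0 and 14.7 CPM in granulosa libraries, where 5 to 12 of them were at 0. The 10 granulosa markers summed to between 36.0 and 2287 CPM in oocyte libraries, with 0 to 5 of them at 0, and to between 16830 and 31710 CPM in granulosa libraries. Control oocyte replicate 2 stood apart at 2287 CPM, which is 8.23% of the mean of control granulosa cells, and control oocyte replicate 1 had 519 CPM. Tut4 and Cnot6 were higher in replicate 2 than in any other oocyte library, and their comparisons with control oocytes are given with and without it.

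Sequence near the 3′ end is shown first, because a cytoplasmic polyadenylation element (CPE) close to the end lets an oocyte lengthen a tail and so controls many stored mRNAs. In GENCODE M21 transcripts (GRCm38), the last 100 bases were searched on the sense strand for TTTTAT or TTTTAAT and for the polyadenylation signals AATAAA or ATTAAA. The element was in 3 of the 10 members (30%), against 3462 of 19368 genes (17.9%). A polyadenylation signal was in 8 of the 10 members (80%), against 15224 genes (78.6%). These are matches of letters in a window and say nothing of whether the element works. The 30 bases around each element are printed with the element, and for Cnot7 also the signal, in capitals:
Noct: ttacaaagagtgcTTTTAATatcttgtctc
Cnot7: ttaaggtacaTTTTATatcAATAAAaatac
Btg4: atccctTTTTATgtctttttaaaagtttga
The element ended 10 bases from the end in Noct, 14 in Cnot7 and 61 in Btg4. The signal ended 35 bases from the end in Noct and 5 in Cnot7, and Btg4 had none in this window. Both element and signal were in 2 of the 10 members (20%), against 2791 genes (14.4%). The 3 genes with an element were among the 5 whose level was higher in oocytes, as described below. Of all genes tested 44.4% were higher in oocytes, and the direction of Btg4 was fixed in advance. A link between the element and the level was not tested. Tut4, Tut7, Cnot6, Cnot6l, Dis3l2, Zfp36l2 and Pabpn1l had no match in this window.

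Promoters are shown for 4 members: Btg4 and Pabpn1l, which were at or near 0 in granulosa cells, and Noct and Tut7, which were lower together in blebbistatin oocytes. Each holds 250 bases before and 50 after the start, from RefSeq (GRCm38.p6; 8 of the 10 members had an entry), 5′ to 3′ on the gene's own strand, with CG dinucleotides in capitals:
Btg4, chr9:51115751-51116050, plus strand: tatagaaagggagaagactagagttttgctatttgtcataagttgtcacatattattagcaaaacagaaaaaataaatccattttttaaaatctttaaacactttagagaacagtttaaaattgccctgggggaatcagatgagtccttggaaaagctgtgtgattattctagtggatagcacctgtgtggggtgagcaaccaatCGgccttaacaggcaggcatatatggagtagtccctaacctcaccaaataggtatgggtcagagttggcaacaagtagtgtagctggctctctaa
Pabpn1l, chr8:122622686-122622985, minus strand: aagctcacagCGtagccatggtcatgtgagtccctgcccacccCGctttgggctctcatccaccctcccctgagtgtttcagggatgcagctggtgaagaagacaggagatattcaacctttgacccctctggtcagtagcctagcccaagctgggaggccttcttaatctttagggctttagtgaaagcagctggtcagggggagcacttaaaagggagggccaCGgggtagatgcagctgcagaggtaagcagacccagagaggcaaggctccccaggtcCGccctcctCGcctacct
Noct, chr3:51224197-51224496, plus strand: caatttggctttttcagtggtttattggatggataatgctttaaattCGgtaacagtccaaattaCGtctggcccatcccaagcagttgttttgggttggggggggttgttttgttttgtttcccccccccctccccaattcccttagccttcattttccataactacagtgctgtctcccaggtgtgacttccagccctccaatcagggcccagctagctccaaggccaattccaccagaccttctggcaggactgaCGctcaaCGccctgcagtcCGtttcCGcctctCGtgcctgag
Tut7, chr13:59823061-59823360, minus strand: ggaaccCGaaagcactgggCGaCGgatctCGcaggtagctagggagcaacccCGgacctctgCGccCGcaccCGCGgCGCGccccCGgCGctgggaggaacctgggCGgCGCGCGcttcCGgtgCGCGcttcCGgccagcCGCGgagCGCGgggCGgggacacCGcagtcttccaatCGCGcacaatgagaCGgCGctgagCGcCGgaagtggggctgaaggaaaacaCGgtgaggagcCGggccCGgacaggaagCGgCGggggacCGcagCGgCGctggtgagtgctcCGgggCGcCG
The Btg4 window held 1 CG and the Pabpn1l window 5, while the Noct window held 7 and the Tut7 window, at its first listed start, 44. The window at the other listed start of Tut7, not printed, held 41. Over 32851 promoters the median was 7 CG, and 94.6% held at least 1. Thus 14.1% of promoters had as few CG as Btg4 or fewer, and 98.1% had as many as the printed Tut7 window or fewer. The other 4 members with an entry held 28 (Tut4), 31 (Dis3l2), 33 (Cnot6) and 49 (Cnot6l) CG at their first listed start.

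The members were compared first between the cell types. Noct, Cnot7, Cnot6l, Btg4 and Pabpn1l were higher in oocytes of control follicles, and Tut4, Tut7, Cnot6, Dis3l2 and Zfp36l2 were lower, than in granulosa cells of control follicles. All 10 passed edgeR's quasi-likelihood test at an adjusted p of 0.05 in the fit over all 24 libraries. Btg4 and Pabpn1l had enough counts to enter this fit only through oocytes, so their direction was fixed in advance. The cell types differ at most genes: 77.3% of the 20601 genes tested passed, 44.4% higher and 32.9% lower in oocytes, and the median of all genes was 0.41 on the log2 scale. For 76.3% of genes the groups did not overlap. A share this high leaves little to read from the count of members, so their sizes and levels are what the next paragraphs give. CPM in the text are scaled within each cell type's table, and counts per gene are not corrected for length, so levels are compared between groups and not between genes.

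**Figure D1:**
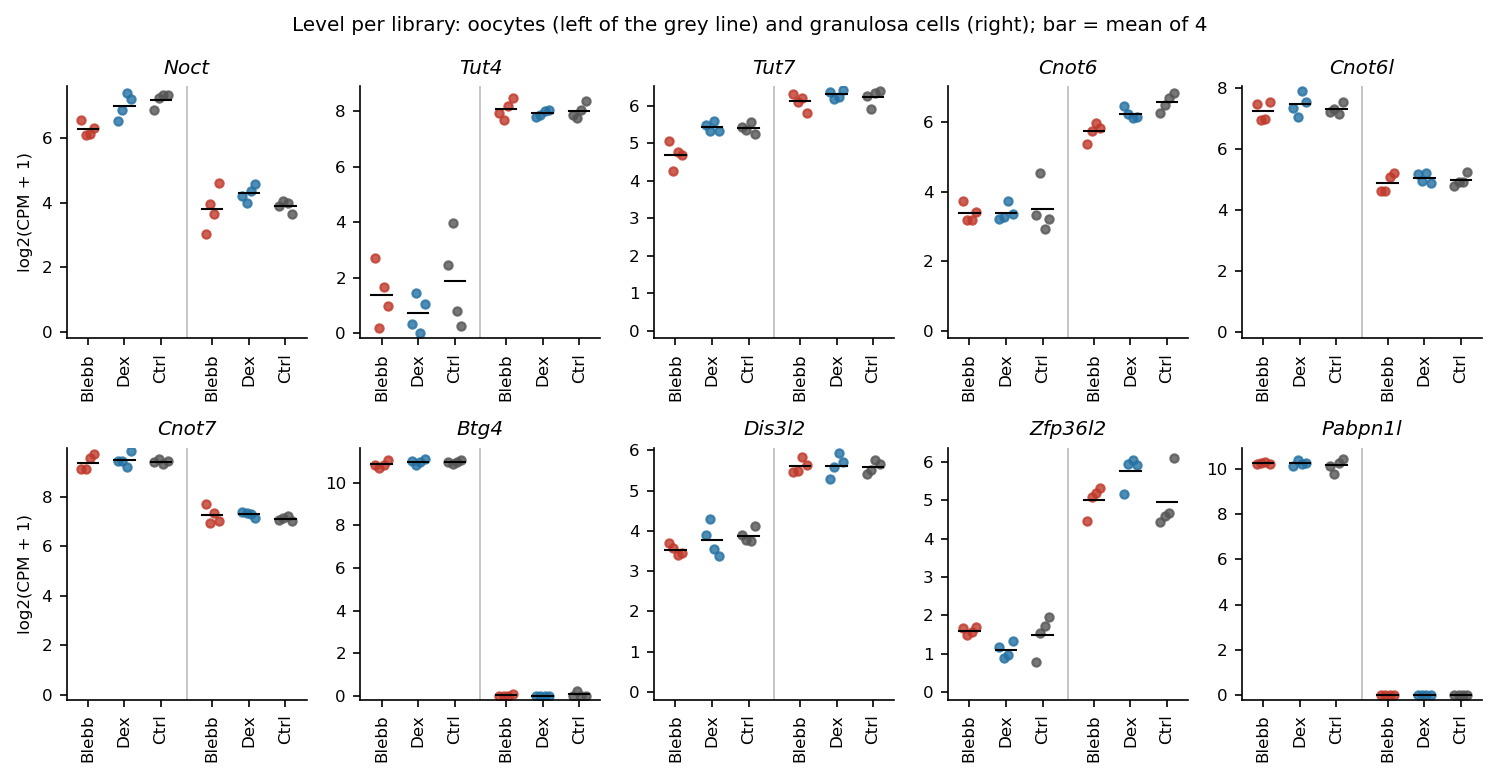
Level of each gene in each library as log2(CPM + 1), with oocytes left and granulosa cells right of the grey line, and blebbistatin (Blebb), dextran (Dex) and control (Ctrl) follicles in that order. Points are libraries and bars are means of 4; Btg4 and Pabpn1l lie at or near 0 in granulosa cells, and Noct and Tut7 are lowest among oocytes in the blebbistatin group.

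The adaptors Btg4 and Pabpn1l were messages of the oocyte. BTG4 links CCR4-NOT to translated mRNA in maturing mouse oocytes, and PABPN1L, an oocyte relative of the nuclear poly(A)-binding protein, works with it. Btg4 had 2005, 1878, 2011 and 2133 CPM in the 4 control oocyte libraries, whereas 3 control granulosa libraries were at 0 and replicate 2 had 0.181 CPM. Over the groups this was 133403 counts in oocytes against 4 counts in granulosa cells, a ratio of 4.09e+04 with a 95% counting interval of 1.6e+04 to 1.5e+05. Pabpn1l had 1105, 864, 1228 and 1356 CPM in control oocytes and no count in any of the 12 granulosa libraries. It was at least 3.08e+04-fold higher in control oocytes, taking 3 counts over the 4 granulosa libraries as the limit that a count of 0 allows. Intervals and limits cover counting error only.

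Cnot7 and Cnot6l, both catalytic subunits of CCR4-NOT, were also higher in oocytes. CNOT7 belongs to the CAF1 family of deadenylases, and CNOT6L to the CCR4 family. Cnot7 had 677, 728, 632 and 690 CPM in control oocytes, against 134, 140, 148 and 127 CPM in control granulosa cells. The log2 difference was 2.66 ± 0.18 (SE; edgeR adjusted p = 4.81e-11). Cnot6l had 147, 156, 142 and 185 CPM in control oocytes, against 26.7, 29.5, 29.4 and 36.6 CPM in control granulosa cells, a log2 difference of 2.71 ± 0.20 (edgeR adjusted p = 1.70e-10). The groups did not overlap for either gene.

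Cnot6, the paralog that can take the place of Cnot6l in the complex, had the opposite pattern. It had 8.97, 21.9, 6.66 and 8.32 CPM in control oocytes, against 74.5, 88.2, 101 and 112 CPM in control granulosa cells. The log2 difference was -2.64 ± 0.32 (edgeR adjusted p = 2.58e-07), and the highest oocyte library was the one with the most granulosa marker RNA. Without that library the difference was -3.29. Of the counts of both paralogs together, Cnot6 had 6.71% ± 3.79 in control oocytes and 75.3% ± 1.58 in control granulosa cells (SD, n = 4 each). This share is not corrected for transcript length.

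The uridylyltransferases were both lower in oocytes, by unlike amounts. Tut4 had 4.48, 14.7, 0.740 and 0.181 CPM in control oocytes, against 232, 213, 266 and 331 CPM in control granulosa cells, a log2 difference of -5.23 ± 0.94 (edgeR adjusted p = 4.36e-05). Tut7 had 41.9, 40.2, 46.3 and 37.3 CPM in control oocytes, against 75.4, 59.7, 79.6 and 82.8 CPM in control granulosa cells, a log2 difference of -0.50 ± 0.17 (edgeR adjusted p = 0.0118). Neither gene's groups overlapped. Control oocytes had a part in choosing Tut7, so its value here is not separate evidence. In dextran follicles, whose oocytes had no part in the choice, Tut7 was at -0.63 ± 0.17 (edgeR adjusted p = 0.00214). Tut4 made up 9.64% ± 12.2 of the counts of both genes in control oocytes and 77.6% ± 1.92 in control granulosa cells (SD, n = 4 each). The single oocyte shares ran from 0.483% to 26.8%, and the mean without control replicate 2 was 3.91%.

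Tut4 was highest in the oocyte libraries with the most granulosa marker RNA. The 3 oocyte libraries with the most granulosa marker RNA, control replicates 2 and 1 and blebbistatin replicate 1, had 14.7, 4.48 and 5.59 CPM of Tut4. The other 9 oocyte libraries had between 0 and 2.14 CPM of Tut4, not in the order of the markers: dextran replicate 2 had 1.70 CPM of Tut4 beside 38.2 CPM of markers, and blebbistatin replicate 2 had 0.138 CPM beside 100 CPM. Control replicate 2 had 5.66% of the mean Tut4 level of control granulosa cells, beside 8.23% for the summed markers. Without this library the log2 difference of Tut4 was -6.93. How much of the Tut4 signal in oocyte libraries came from granulosa RNA was not tested. Tut7 in control replicate 2, at 40.2 CPM, lay inside the range of the other control oocytes.

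**Figure D2:**
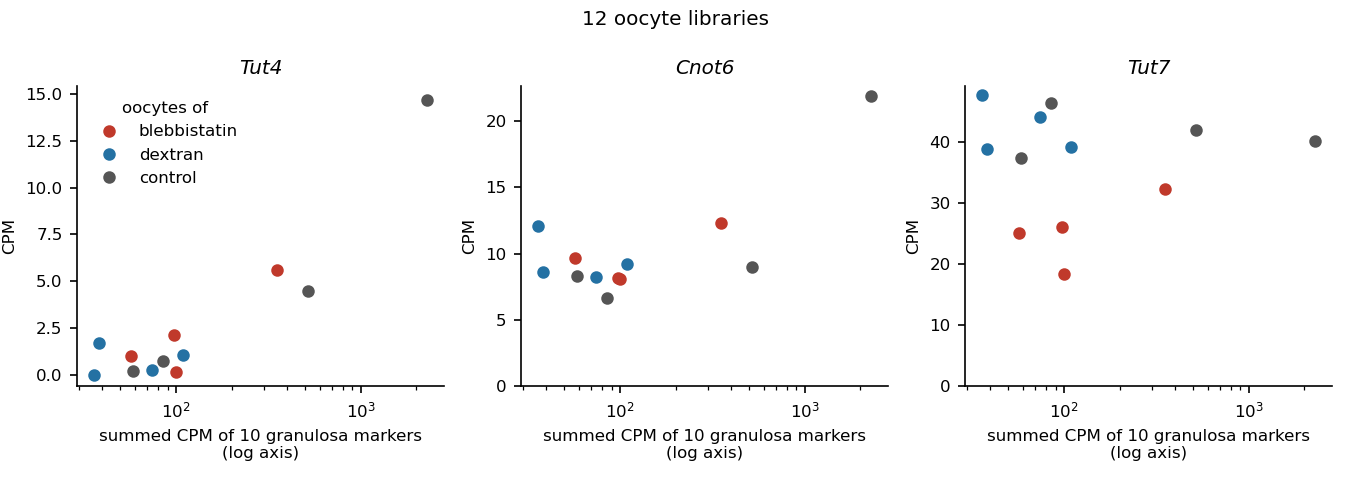
Level of Tut4, Cnot6 and Tut7 in CPM (y axes) against the summed CPM of 10 granulosa markers (x axes, log scale) in the 12 oocyte libraries, coloured by treatment. Control replicate 2, at 2287 CPM of markers, is highest for Tut4 at 14.7 CPM and for Cnot6 at 21.9 CPM but not for Tut7; the 4 blebbistatin libraries are lowest for Tut7.

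Dis3l2, the exonuclease that degrades uridylated RNA, had 13.8, 12.7, 12.4 and 16.3 CPM in control oocytes, against 41.2, 45.0, 53.2 and 49.8 CPM in control granulosa cells. Its log2 difference was -1.44 ± 0.19 (edgeR adjusted p = 1.13e-06). Zfp36l2, a zinc finger protein that binds AU-rich elements and recruits CCR4-NOT, had 0.736, 1.91, 2.28 and 2.89 CPM in control oocytes, against 20.5, 22.9, 24.2 and 67.9 CPM in control granulosa cells. Its log2 difference was -3.78 ± 0.41 (edgeR adjusted p = 6.26e-08). The last granulosa library lay far above the other 3, and without it the difference was -3.20, still past the threshold.

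Noct encodes nocturnin, a rhythmically expressed relative of the CCR4 deadenylases whose purified protein acts on NADP(H). It had 116, 148, 158 and 159 CPM in control oocytes, against 13.9, 15.6, 14.8 and 11.5 CPM in control granulosa cells. The log2 difference was 3.72 ± 0.28 (edgeR adjusted p = 1.99e-10). Control oocytes had a part in choosing Noct, so this value is not separate evidence. In dextran follicles, whose oocytes had no part in choosing the set, the log2 difference was 3.04 ± 0.27 (edgeR adjusted p = 2.62e-09).

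The cell type pattern held in treated follicles. All 10 members passed in the same direction in blebbistatin follicles, where 78.9% of all genes passed, and in dextran follicles, where 79.4% did. Btg4 and Pabpn1l, again tested only through their oocyte counts, could have no other direction. For Tut7 the log2 difference was -1.15 ± 0.17 in blebbistatin follicles, -0.63 ± 0.17 in dextran follicles and -0.50 ± 0.17 in control follicles. The blebbistatin value contains the lower Tut7 level by which the set was chosen, and the control value contains the control oocytes of that choice. For Tut4 it was -6.64 ± 1.02 in blebbistatin follicles and -8.09 ± 1.11 in dextran follicles, where no oocyte library had more than 109 CPM of granulosa markers.

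**Figure D3:**
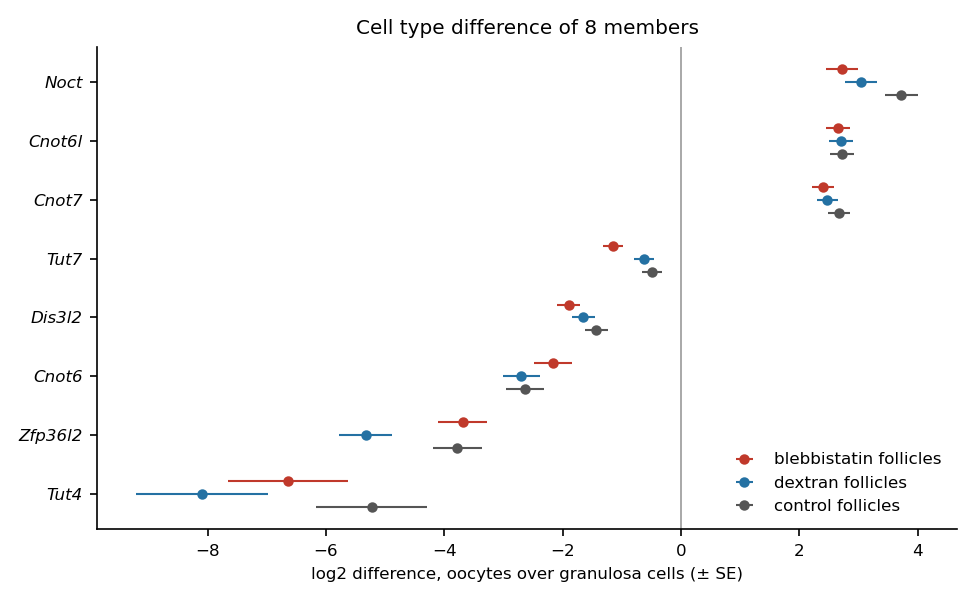
Log2 difference of oocytes over granulosa cells, with its SE, for the 8 members other than Btg4 and Pabpn1l, in blebbistatin, dextran and control follicles (edgeR, joint fit). Noct, Cnot6l and Cnot7 lie above 0 and the other 5 below 0 in all 3 kinds of follicle; Tut7 lies nearest to 0, at -0.50 in control follicles.

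Among 85 other genes of the pathway, in 7 lists of partners and relatives, 84 were tested, of which 46 were higher and 20 lower in control oocytes than in control granulosa cells. Their median log2 difference was 0.92, against 0.41 for all genes. Without control oocyte replicate 2, 44 were higher and 23 lower. Of all 20601 genes tested, 77.3% passed, 44.4% higher and 32.9% lower, so these counts are not read as a result about the pathway. Of the 85 genes, 74 passed the filter on low counts in granulosa cells and 83 in oocytes. A gene that entered the joint fit only through oocytes, as Btg4 and Pabpn1l did, could have no direction but higher. Of the cytoplasmic poly(A)-binding proteins, Pabpc1l averaged 163 ± 20.7 CPM in control oocytes and 0.0465 ± 0.0656 CPM in control granulosa cells (SD, n = 4 each). Pabpc1 had 39.9, 108, 16.8 and 13.9 CPM in control oocytes, highest in replicate 2, and averaged 914.8 ± 82.9 CPM in control granulosa cells (SD, n = 4). Of the DIS3 nucleases, Dis3l was higher in oocytes by 2.56 ± 0.19 (edgeR adjusted p = 1.88e-10), and Dis3, the exosome's main nuclease, was lower, at -2.89 ± 0.34 (edgeR adjusted p = 1.74e-07).

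By list, the rest of the pathway ran as follows, beside 44.4% of all genes higher and 32.9% lower in oocytes. The higher counts include genes tested only through their oocyte counts, whose direction was fixed in advance. Pabpc1l, Lin28a and Cpeb1, at or near 0 in control granulosa cells, are named for their levels only. Of 13 other CCR4-NOT subunits and BTG/Tob adaptors, 6 were higher and 2 lower in oocytes. The adaptor Tob2 was higher, at 5.11 ± 0.32 (edgeR adjusted p = 9.58e-12), and the adaptor Btg1 lower, at -1.19 ± 0.23 (edgeR adjusted p = 0.000106). Of 7 other deadenylases and relatives, 4 were higher and 1 lower, and the higher ones included Pan2, the catalytic subunit of PAN2-PAN3, at 2.26 ± 0.23. Of 9 other nucleotidyltransferases and let-7 partners, 6 were higher and 1 lower. The let-7 binding protein Lin28a, a partner of TUT4 and TUT7, averaged 118 ± 5.93 CPM in control oocytes and was at 0 in control granulosa cells. Of the exosome genes and other DIS3 nucleases 7 were higher and 4 lower of 14 tested, of the decapping genes 8 higher and 5 lower of 14, of the other RNA-binding regulators 10 higher and 5 lower of 20, and of the poly(A)-binding proteins and partners 5 higher and 2 lower of 7. Cpeb1, the protein that binds the CPE, averaged 1328 ± 124 CPM in control oocytes and was at 0 in control granulosa cells (SD, n = 4).

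In oocytes of blebbistatin follicles, the contrast behind the choice of genes, Noct and Tut7 were below every control library. Noct had 93.1, 66.9, 68.1 and 78.3 CPM in blebbistatin oocytes, 91.5, 115, 166 and 145 CPM in dextran oocytes, and 116, 148, 158 and 159 CPM in control oocytes. The log2 change of blebbistatin against control was -0.92 ± 0.18 (SE). Tut7 had 32.3, 18.4, 26.1 and 24.99 CPM in blebbistatin oocytes, 44.1, 38.8, 47.7 and 39.2 CPM in dextran oocytes, and 41.9, 40.2, 46.3 and 37.3 CPM in control oocytes. Its log2 change of blebbistatin against control was -0.70 ± 0.17. Dextran oocytes overlapped control oocytes for both genes.

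Dis3l2 was the only other member whose blebbistatin oocytes, at 11.996, 10.9, 9.54 and 9.997 CPM, all lay below control oocytes, at 13.8, 12.7, 12.4 and 16.3 CPM; its log2 change was -0.38 ± 0.22. The gap between the groups was small, at 11.996 CPM for the highest blebbistatin library and 12.4 CPM for the lowest control library. Of all 16749 genes 2.61% did not overlap between these groups, and 1.4% were lower. Apart from Tut4, given below, the members next in size were Cnot6 at -0.26 ± 0.33 and Btg4 at -0.10 ± 0.10, both overlapping control. Without control replicate 2 Cnot6 was at 0.26, so its direction rests on that library. Cnot7, at -0.01 ± 0.15, Cnot6l, at -0.05 ± 0.18, Pabpn1l, at 0.08 ± 0.12, and Zfp36l2, at 0.06 ± 0.44, were close to 0, and without control replicate 2 Cnot7 was at 0.02 and Pabpn1l at -0.04. Tut4 was at -1.18 ± 1.25, and at 0.31 without control replicate 2; with any 1 library left out it lay between -2.21 and 0.31. EdgeR called 0 of the 16749 genes at an adjusted p of 0.05 in this contrast, with 686 (4.1%) at an unadjusted p under 0.05, limma voom 0, and DESeq2 16. Fewer oocyte transcripts of a gene and more RNA of other genes cannot be told apart in CPM. In granulosa libraries, fewer cells of a type and less RNA per cell cannot be told apart.

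Between blebbistatin and dextran oocytes Tut7 differed by -0.74 ± 0.17 with no overlap and Noct by -0.75 ± 0.18 with 3 of 4 blebbistatin libraries below every dextran library. Both had an edgeR adjusted p of 0.999 and did not pass. The comparison shares its blebbistatin libraries with the one that chose the genes, so it is not separate evidence. Zfp36l2 had 2.18, 1.79, 1.95 and 2.24 CPM in blebbistatin oocytes, against 1.25, 0.850, 0.971 and 1.51 CPM in dextran oocytes. These groups did not overlap, as for 2.77% of all genes (1.43% higher, 1.34% lower), and the difference of 0.83 ± 0.44 did not pass (edgeR adjusted p = 0.999). EdgeR called 0 members and 0 of 16749 genes, with 2 members and 682 genes (4.07%) at an unadjusted p under 0.05, and limma voom and DESeq2 also called 0 genes.

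Dextran against control in oocytes, which shares the control libraries of the choice, called none of the 10 members. Noct was at -0.17 ± 0.17 and Tut7 at 0.04 ± 0.16, with an edgeR adjusted p of 0.995 for Noct and 0.999 for Tut7. Tut4 was at -2.73 ± 1.35 (edgeR adjusted p = 0.935), and at -1.24 without control replicate 2. Zfp36l2 was at -0.77 ± 0.44 (edgeR adjusted p = 0.948), and the other 6 lay between -0.26 and 0.18. Cnot6, the lowest of these at -0.26, was at 0.26 without control replicate 2, and Btg4 and Pabpn1l also took the other sign, at -0.03 and -0.02. EdgeR called 0 of 16749 genes, with 890 genes (5.31%) and 0 members at an unadjusted p under 0.05, limma voom called 0 and DESeq2 4, of which 0 were members.

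**Figure D4:**
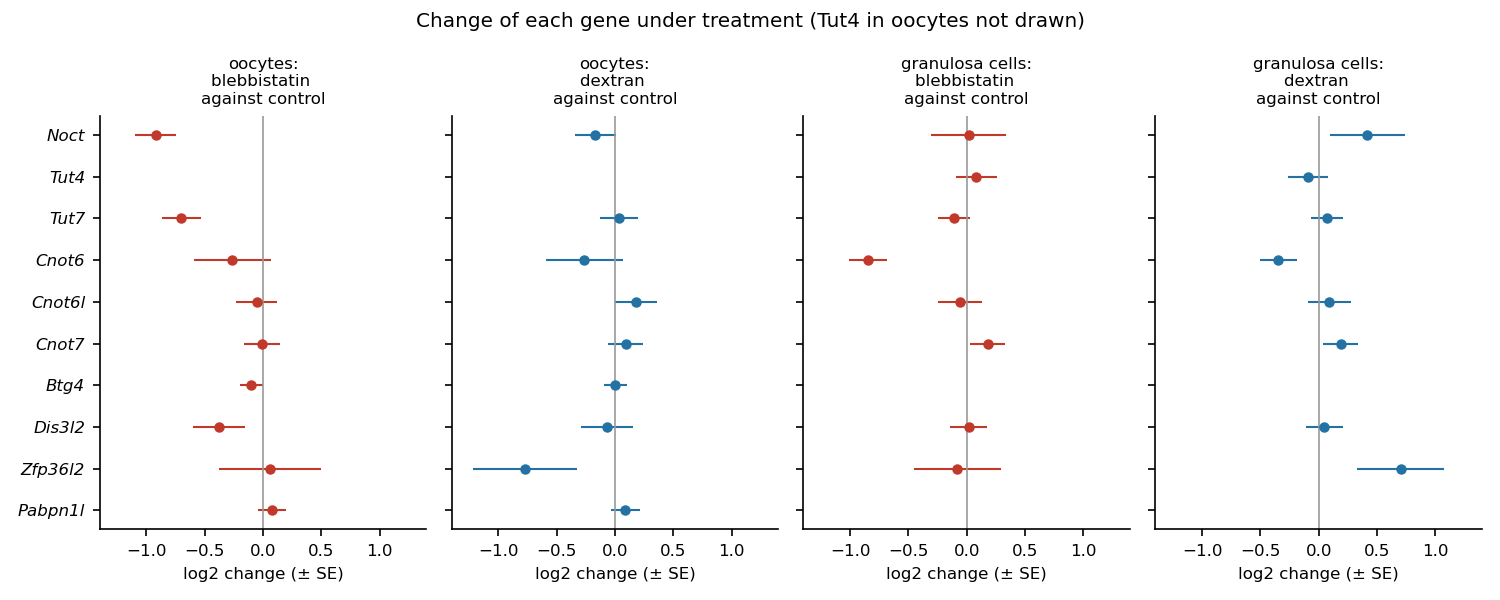
Log2 change of each member, with its SE, for blebbistatin and for dextran against control in oocytes and in granulosa cells (edgeR). Tut4 in oocytes is not drawn, and Btg4 and Pabpn1l were not tested in granulosa cells. Of the genes drawn, Noct and Tut7 are lowest in blebbistatin oocytes, at -0.92 and -0.70, and Cnot6 in blebbistatin granulosa cells, at -0.85.

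In granulosa cells, which had no part in the choice, 8 members passed the filter on low counts and Btg4 and Pabpn1l did not. Noct had 7.16, 14.6, 11.4 and 23.3 CPM in blebbistatin granulosa cells, 17.5, 14.7, 19.5 and 22.8 CPM in dextran granulosa cells, and 13.9, 15.6, 14.8 and 11.5 CPM in control granulosa cells. Blebbistatin against control gave a log2 change of 0.02 ± 0.32 for Noct and of -0.11 ± 0.14 for Tut7 (edgeR adjusted p = 0.992 and 0.827). Tut7 had 78.9, 68.1, 73.0 and 55.3 CPM in blebbistatin granulosa cells, 81.0, 72.0, 74.8 and 84.5 CPM in dextran granulosa cells, and 75.4, 59.7, 79.6 and 82.8 CPM in control granulosa cells. All 3 groups overlapped for both genes. Whether the blebbistatin change of Noct or Tut7 differs between cell types was not tested, since that difference contains the contrast that chose them.

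Of the 8 members, Cnot6 had the blebbistatin value farthest from 0 in granulosa cells. It had 40.1, 51.8, 61.3 and 55.4 CPM in blebbistatin granulosa cells, 85.7, 73.8, 67.4 and 68.4 CPM in dextran granulosa cells, and 74.5, 88.2, 101 and 112 CPM in control granulosa cells. All 4 blebbistatin libraries lay below every dextran and every control library. The log2 change against control was -0.85 ± 0.16 and did not pass in edgeR (adjusted p = 0.102), while DESeq2 gave -0.83 with an adjusted p of 0.000638. Against dextran it was -0.50 ± 0.16 (edgeR adjusted p = 0.399). Of all 15370 genes, 6.6% did not overlap between blebbistatin and control granulosa cells, 4.14% lower, and 5.62% between blebbistatin and dextran, 3.78% lower. The share of Cnot6 among counts of both paralogs was 64.1% ± 3.41 with blebbistatin, 69.4% ± 2.95 with dextran and 75.3% ± 1.58 in control (SD, n = 4 each). Cnot6l was at -0.06 ± 0.19 against control (edgeR adjusted p = 0.939).

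Other features of the granulosa libraries also differed with blebbistatin, some in only part of its libraries. The 9 stromal, theca and smooth muscle markers summed to between 400 and 1538 CPM in blebbistatin granulosa cells and to between 22.7 and 374 CPM in control granulosa cells. The 10 granulosa markers summed to between 16830 and 21730 CPM in blebbistatin granulosa cells and to between 25140 and 31710 CPM in control granulosa cells. For the 6 immune markers the sum was 544 CPM in blebbistatin replicate 1 and 826 CPM in replicate 2. It was 2.6 CPM in blebbistatin replicate 3, 3.3 CPM in replicate 4 and at most 10.1 CPM in any control granulosa library. Mitochondrial genes took 3.86% to 9.53% of counts in blebbistatin granulosa cells and 2.60% to 4.52% in control granulosa cells. Their part in the Cnot6 value was not tested. EdgeR called 1 of 15370 genes (0.00651%) and 0 members in blebbistatin against control granulosa cells, with 1602 genes (10.4%) and 1 member, Cnot6, at an unadjusted p under 0.05; limma voom also called 1 gene, and DESeq2 377, Cnot6 among them. Without blebbistatin replicate 2 edgeR called 115 genes and again 0 members.

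Dextran against control in granulosa cells called 0 members and 0 of 15370 genes in edgeR, with 523 genes (3.4%) and 0 members at an unadjusted p under 0.05, and DESeq2 called 42 genes and 0 members. Zfp36l2 had 35.1, 60.6, 65.3 and 59.8 CPM in dextran granulosa cells, against 20.5, 22.9, 24.2 and 67.9 CPM in control granulosa cells. The log2 change was 0.71 ± 0.37 (edgeR adjusted p = 1.00), and 1.29 without control replicate 4, the high library. Noct was at 0.42 ± 0.32, Cnot6 at -0.35 ± 0.16, and the other 5 tested lay between -0.09 and 0.19. In blebbistatin against dextran granulosa cells edgeR called 0 members and 0 genes, with 1 member and 1358 genes (8.84%) at an unadjusted p under 0.05, and DESeq2 called 214 genes and 0 members.

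The dextran response was compared between cell types as an interaction over all 24 libraries. EdgeR called 0 of 20601 genes and 0 members, with 1912 genes (9.28%) and 3 members at an unadjusted p under 0.05; limma voom called 0 and DESeq2 243 genes and 0 members. Zfp36l2 gave -1.55 ± 0.54 (edgeR adjusted p = 0.361), Tut4 -2.87 ± 1.26 (edgeR adjusted p = 0.471) and Noct -0.68 ± 0.36 (edgeR adjusted p = 0.610). Without control oocyte replicate 2 Tut4 was at -1.09 (edgeR adjusted p = 1), and Cnot6, at -0.06 ± 0.43 with it, was at 0.66 (edgeR adjusted p = 0.844). The third member at an unadjusted p under 0.05 was Btg4, which has 4 counts in control granulosa cells and 0 in dextran granulosa cells. The median over all genes was -0.16 with TMM and -0.04 with RLE scaling, a shift that moves these values alike.

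Of the 85 other pathway genes 0 passed in any treatment comparison in edgeR. In blebbistatin against control granulosa cells 5 of 74 tested had an unadjusted p under 0.05, beside 10.4% of all genes, and 0 of 74 in dextran against control, beside 3.4%. In oocytes 3 of 83 did in dextran against control, beside 5.31% of all genes, and 2 of 83 in blebbistatin against control, beside 4.1%. Those 2 were Xrn1 and Tent5b. Xrn1, the main cytoplasmic 5′ exonuclease, was at 17.1 ± 5.02 CPM in blebbistatin oocytes and 30.5 ± 7.26 CPM in control oocytes (SD, n = 4 each). The nucleotidyltransferase Tent5b stood at 549.5 ± 93.4 CPM in blebbistatin oocytes and 774 ± 145 CPM in control oocytes. Neither passed.

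Ordered by level over the 6 groups, the neighbours that differed by more than the larger SD were few. For Cnot6l, Cnot7, Btg4, Pabpn1l, Tut4, Dis3l2 and Zfp36l2 the only such step was between the cell types. Noct had a second step between dextran oocytes, at 129 ± 32.7 CPM, and blebbistatin oocytes, at 76.6 ± 12.2 CPM, and Tut7 one between blebbistatin oocytes, at 25.5 ± 5.73 CPM, and control oocytes, at 41.4 ± 3.78 CPM (SD, n = 4 each). Both steps hold the blebbistatin oocytes by which the set was chosen, so they are not separate evidence. Cnot6 had steps at every place among granulosa cells, at 52.1 ± 8.93 CPM with blebbistatin, 73.8 ± 8.43 CPM with dextran and 93.9 ± 16.2 CPM in control. The share of all genes with such steps was not counted, so the steps are a description only.

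Over the 12 oocyte libraries Noct and Tut7 varied together, with Pearson r = 0.819 of log2(CPM + 1). Over the 8 dextran and control libraries alone r was 0.056; both genes were chosen for the difference of the blebbistatin group. The strongest of the 45 pairs besides was Cnot6 with Pabpn1l at r = -0.794, in which control replicate 2 was highest for Cnot6 and lowest for Pabpn1l; without it r was -0.297 over 11 libraries. Among 10022 genes that averaged 5 CPM or more in oocytes, those most like Noct were Nutf2 (r = 0.949), Fbxo28 (r = 0.931) and Zfand5 (r = 0.917). Those most like Tut7 were Masp1 (r = 0.896), Pggt1b (r = 0.874) and Foxn3 (r = 0.848). These are descriptions over 12 libraries that share the treatment groups, picked as the highest of many.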

How the data were processed

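Salmon produced the deposited values, which are estimated counts for 78298 genes in a table for each of the 2 cell types, per the labels. Per the submitters' processing notes the build was GRCm39. For the aligner, annotation release, software versions, strandedness and cDNA priming the entry is: not given in the sources used here. How tail length might bear on the counts was therefore not tested. Per the labels' protocols all RNA was isolated at the same time, and cDNA went through 15 PCR cycles. There were 0 unused sample columns.

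Counts were rounded, filtered with filterByExpr, scaled with TMM and tested with edgeR 4.0.16 (glmQLFit, robust; glmQLFTest) in R 4.3.3, with Benjamini-Hochberg adjustment over all genes tested and a threshold of 0.05. Each cell type was fitted over its 12 libraries (15370 genes in granulosa cells, 16749 in oocytes), and both together over 24 for the cell type difference and the interaction (20601 genes). Alternatives were RLE scaling, no filter, DESeq2 1.42.0, limma 3.58.1 voom, a replicate block, only the groups compared, no scaling factors and each library left out. The cell type fit in treated follicles, the fits without scaling factors, and the pathway counts, paralog shares and pair correlation without control oocyte replicate 2 were added after seeing the data.

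Members and lists were chosen with earlier results of these data known. All 10 members are named in the text; of each other list, genes that passed (up to 4 per direction by p) or else the gene of smallest p could be named, and for Noct and Tut7 the 3 genes of highest r. Some estimates were not whole within 0.05, a sign of reads shared between transcripts of different genes: in 21 of 24 libraries for Cnot7, 17 for Tut7, 9 for Noct and 1 for Zfp36l2, and in none for the other 6 members. The edgeR step was tested on simulated data with 2-fold and 4-fold changes in genes that averaged 5 CPM or more. It recovered 64% and 97% of them for dextran in oocytes (5 false of 166 calls), 39% and 75% for dextran in granulosa cells (4 of 118), and 38% and 69% for the cell type comparison (3 of 110). In this simulation all other genes had the same mean in both cell types, while 77.3% of genes passed in the real comparison. The cell type figures therefore do not describe the real comparison. Replicates differed by at least 12.4 in chi-square per gene with at least 10 counts, so none was counted as a duplicate. Reference sequences are of GRCm38 and were used for sequence only. No batch is given in the labels.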

Additional observations from a re-analysis of the deposited data

Results flagged for a closer look

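In 54 groups of 4 libraries with values, 2 held a library far from the other 3; chance alone gives such a flag in about 1 group in 20. Cnot6 in control oocytes was at 21.88 CPM in replicate 2, against 6.66 to 8.97 CPM in the other 3. That library also had the most granulosa marker RNA of all oocyte libraries, 2287 CPM, and the part of this in the Cnot6 value was not tested. Zfp36l2 in control granulosa cells was at 67.94 CPM in replicate 4, against 20.5 to 24.2 CPM in the other 3.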

How the results depend on the processing

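Of 952 values of single members under the alternatives in the tested comparisons, 867 kept their direction and side of the threshold, 84 had the other sign, and 1 passed that had not (Cnot6 in blebbistatin against control granulosa cells, DESeq2). The 952 include the cell type differences in blebbistatin and in dextran follicles, which compare other libraries and are not another processing. In blebbistatin against control oocytes, which has no test, 11 of 140 had the other sign (Cnot6, Cnot6l, Cnot7, Pabpn1l, Tut4 and Zfp36l2). Among these, Cnot6 went from -0.26 ± 0.33 (SE) to 0.26 without control replicate 2. All 10 members kept the cell type call in each alternative run. Btg4 and Pabpn1l, tested only through their oocyte counts, could have no other direction. The run in blebbistatin follicles holds the Noct and Tut7 values by which the set was chosen. In the tested comparisons the members whose sign turned had not passed in edgeR; the cause was not tested.

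With DESeq2, in place of edgeR, the genes called were 377 for blebbistatin against control in granulosa cells (1 of them a member, Cnot6), 42 for dextran against control, 214 for blebbistatin against dextran, 16 in blebbistatin against control oocytes, 4 in dextran against control oocytes and 243 for the interaction. With no filter on low counts they were 23, 4 and 1 in the same 3 granulosa comparisons and 4 in blebbistatin against control oocytes. With only the 2 groups compared they were 0 for blebbistatin and 1 for dextran against control in granulosa cells. With the replicate block, blebbistatin against control in granulosa cells had 0 calls, Noct was -0.087 and Zfp36l2 0.029; it changed no other call. Of same-numbered pairs, 2 of 12 in granulosa cells and 3 of 12 in oocytes had a correlation over 0.1. Of differently numbered pairs, 3 of 36 in granulosa cells and 5 of 36 in oocytes did. These counts cannot tell whether the replicate numbers pair the samples.

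For blebbistatin against dextran in granulosa cells Cnot7 was 0.0256 with RLE scaling and with DESeq2, 0.0022 with no filter and 0.0149 with 2 groups. With limma voom, Noct was -0.15 and Zfp36l2 0.12 for blebbistatin against control in granulosa cells. Cnot6 was 0.0014 for blebbistatin against dextran in oocytes with 2 groups. For the interaction, Cnot6 was 0.1237 with RLE, 0.1222 with DESeq2, 0.1304 with limma voom and 0.0553 with no scaling factors, and Cnot6l was 0.1137 with RLE, 0.1133 with DESeq2 and 0.0645 with no scaling factors. Scaling moved the median of all genes in the cell type comparison to 0.48 with RLE and 0.06 with no factors, where Tut7 was at -0.43 and -0.85.

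Leaving out each library in turn gave 0 to 115 calls for blebbistatin against control in granulosa cells (115 without blebbistatin replicate 2), 0 to 3 for blebbistatin against dextran and 0 to 91 for the interaction (91 without control oocyte replicate 4). For the interaction the ranges were -3.63 to -1.09 for Tut4 (-1.09 without control oocyte replicate 2), -0.27 to 0.66 for Cnot6, -0.13 to 0.20 for Cnot6l, -0.35 to 0.0008 for Cnot7, -0.39 to 0.063 for Dis3l2 and -0.22 to 0.056 for Tut7. In dextran against control oocytes they were -0.034 to 0.058 for Btg4, -0.46 to 0.26 for Cnot6, -0.033 to 0.18 for Cnot7, -0.27 to 0.068 for Dis3l2, -0.022 to 0.19 for Pabpn1l and -0.021 to 0.086 for Tut7. In blebbistatin against dextran oocytes they were -0.14 to 0.14 for Cnot6, -0.23 to 0.035 for Cnot7 and -0.054 to 0.041 for Pabpn1l, and in blebbistatin against control oocytes -0.46 to 0.26 for Cnot6. In blebbistatin against control granulosa cells they were -0.18 to 0.054 for Cnot6l, -0.066 to 0.097 for Dis3l2, -0.34 to 0.25 for Noct, -0.071 to 0.23 for Tut4 and -0.24 to 0.52 for Zfp36l2. In dextran against control granulosa cells they were -0.072 to 0.15 for Dis3l2, -0.18 to 0.039 for Tut4 and -0.022 to 0.12 for Tut7, and in blebbistatin against dextran -0.17 to 0.11 for Cnot7 and -0.14 to 0.11 for Dis3l2. With 0.181 to 14.7 CPM in control oocytes, a change of Tut4 under treatment could not be resolved.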
